A study of Mus musculus with 11 samples.

Results

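This section describes 40 receptor genes for 4 small neurotransmitters, GABA, glycine, glutamate and serotonin, and for extracellular nucleotides, in single cells of the mouse stellate ganglion. They are the rows of the deposited expression table, 40 of 19444 genes, whose symbols follow the naming patterns of GABA-A, GABA-B, glycine, ionotropic and metabotropic glutamate, serotonin, P2X and P2Y receptors. By family they are 7 GABA-A subunits, 2 GABA-B subunits, 1 glycine receptor subunit, 4 AMPA, 5 kainate and 4 NMDA receptor subunits, 3 metabotropic glutamate receptors, 6 serotonin receptor genes, 4 P2X and 4 P2Y receptors. The cells came from 6 male C57BL/6J mice aged 6 to 8 weeks. In every mouse, tracers that travel back along axons had been injected 3 days earlier, CTB-488 into the forelimb and CTB-555 into interscapular brown fat (iBAT), so no untreated group existed, and no tracer label could be tied to a cell. Ganglia of 2 mice were pooled into each of 3 sets, which are the replicates here. Set 1 and Set 2 filled 4 plates each and Set 3 filled 3 plates. Of 1039 cells stated for the series, 878 carried a cluster number from the authors, with 388 in cluster 1, 335 in cluster 2, 101 in cluster 3 and 54 in cluster 4.

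The stellate ganglion is a sympathetic ganglion whose neurons supply the heart, the forelimb and brown fat. Fast transmission from the spinal cord onto these neurons runs mainly through nicotinic acetylcholine receptors, and the receptors described here are known in sympathetic ganglia as routes of additional excitation, inhibition or modulation. Serotonin 5-HT3, AMPA, kainate, NMDA and P2X receptors are cation channels, GABA-A and glycine receptors are chloride channels, and GABA-B, metabotropic glutamate and P2Y receptors act through G proteins. A subunit's RNA does not show that a channel was assembled.

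The clusters carried no names. The noradrenergic markers Th, Dbh, Slc6a2 and Slc18a2 summed to 87.0, 87.3 and 102 counts per 10000 counts of the cell in cluster 1 in Sets 1, 2 and 3, and to 109, 116 and 126 in cluster 2. The cholinergic markers Chat, Slc18a3, Slc5a7 and Vip summed to 64.6, 62.9 and 58.2 in cluster 4, whose noradrenergic sum was 30.1, 28.3 and 42.3. In clusters 1 and 2 the cholinergic sum averaged 0.241 and 0.291, which is 0.389% and 0.470% of that in cluster 4. Of the single markers, Slc18a3 stood at 0.956% of its cluster 4 level in cluster 2. cDNA was pooled within a plate, and whether these counts came from other wells was not tested. The 9 glial markers summed to between 11.8 and 14.4 in cluster 1, between 13.8 and 23.4 in cluster 2 and between 21.1 and 43.0 in cluster 4, with the glial factor Sox10 averaging 0.0148, 0.0281 and 0.0341 in them. The median neuron held 28396 counts in cluster 1, 40121 in cluster 2 and 35489 in cluster 4.

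Differences between clusters were tested with limma on set means, with the set as a block, and called at a Benjamini-Hochberg adjusted p under 0.05 over all 10564 genes tested. Each is a difference between cluster means, where every cell first entered as log2(1 + counts per 10000), a scale that understates the change of low genes. The clusters were made by the authors from the same cells, so a p-value here says only how well a difference repeated over the 3 sets. Of the 40 receptor genes, 19 passed the minimum of 0.05 counts per 10000, set on the mean over the 9 means of set and cluster, and were tested. Grin3a reached it through its level in cluster 4 alone and P2ry6 through cluster 1 alone. Both therefore had to differ between clusters, so their values are given as a description without a p-value, and they remain in the counts below.

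Between cluster 2 and cluster 1, 3 receptor genes were higher in cluster 2, against 5.27% of all genes tested, and 5 were lower, against 3.59%. Between cluster 4 and cluster 1, 5 were higher in cluster 4, against 11.9% of all genes, and 3 were lower, against 9.49%. Between cluster 4 and cluster 2, 6 were higher in cluster 4, against 9.13%, and 1 was lower, against 10.9%. The median log2 difference of the tested receptor genes was 0.05, 0.07 and 0.04 in these contrasts, beside 0.01, 0.01 and -0.01 over all genes. The 2 contrasts with cluster 4 share its cells, and every pair of contrasts shares a cluster. Grin3a is among those higher in both contrasts with cluster 4, and P2ry6 among those lower in both contrasts with cluster 1. The plot of log2 differences shows the size for those named below.

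**Figure D1:**
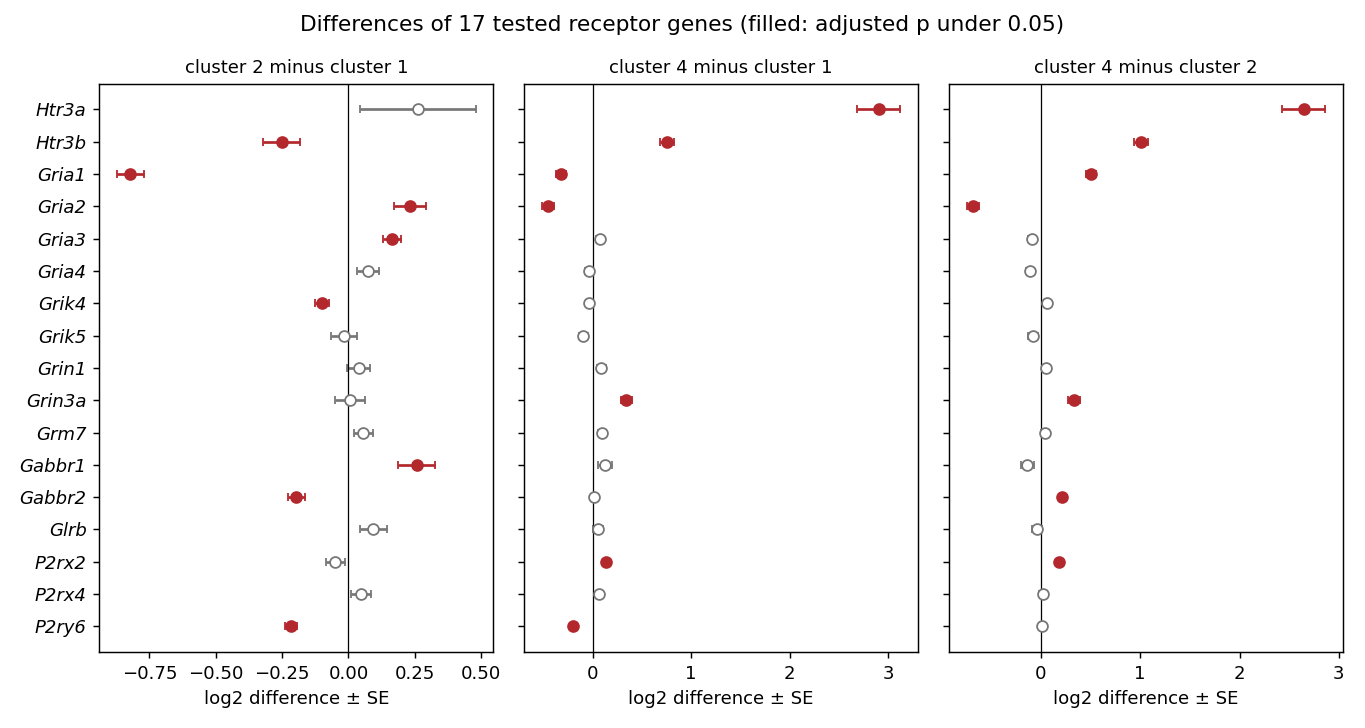
Log2 difference with its standard error (x axis, log2 scale) for 17 of the tested receptor genes (y axis) in the 3 contrasts, where filled points have an adjusted p under 0.05 (for Grin3a and P2ry6 no support, since each was tested through the cluster where it is high). Htr3a lies farthest to the right in both contrasts with cluster 4, at 2.91 and 2.64, and Gria1 farthest to the left between clusters 2 and 1, at -0.82.

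The DNA around the start of 3 of these genes is shown because their levels separated the clusters in different ways: among clusters 1, 2 and 4, Htr3b was highest in cluster 4, Gria2 was lowest there and Gabbr2 was lowest in cluster 2. Each sequence runs from 250 bases before to 50 bases after the RefSeq transcript start (GRCm38.p6), 5′ to 3′ on the gene's strand, which is the minus strand for all 3. Htr3b is from chr9:48964941-48965240, Gria2 from chr3:80802786-80803085 and Gabbr2 from chr4:46991665-46991964. Capitals mark matches on either strand to the E-box CANNTG and the GC box GGGCGG, and no matches overlap in these windows.
Htr3b: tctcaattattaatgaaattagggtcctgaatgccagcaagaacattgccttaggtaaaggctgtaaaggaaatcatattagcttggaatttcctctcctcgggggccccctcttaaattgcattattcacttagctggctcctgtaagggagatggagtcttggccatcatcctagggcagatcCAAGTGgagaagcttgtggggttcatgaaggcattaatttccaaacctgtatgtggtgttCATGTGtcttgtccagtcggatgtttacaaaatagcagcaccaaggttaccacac
Gria2: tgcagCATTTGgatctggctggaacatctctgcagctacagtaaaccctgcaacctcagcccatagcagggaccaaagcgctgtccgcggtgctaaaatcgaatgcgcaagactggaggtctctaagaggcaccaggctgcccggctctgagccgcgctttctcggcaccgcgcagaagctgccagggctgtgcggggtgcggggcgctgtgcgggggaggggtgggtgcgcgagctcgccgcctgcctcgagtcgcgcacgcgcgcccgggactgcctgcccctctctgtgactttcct
Gabbr2: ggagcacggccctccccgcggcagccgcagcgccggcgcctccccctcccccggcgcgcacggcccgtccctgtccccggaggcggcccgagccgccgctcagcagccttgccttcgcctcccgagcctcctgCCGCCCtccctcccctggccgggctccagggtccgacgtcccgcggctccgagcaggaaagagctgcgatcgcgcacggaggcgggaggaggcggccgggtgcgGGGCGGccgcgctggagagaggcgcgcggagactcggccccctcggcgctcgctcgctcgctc

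The Htr3b window was 44.3% G and C, against 65.7% for Gria2, 80.3% for Gabbr2 and a median of 52.7% over 32851 windows of all genes. It held 2 E-boxes and no GC box, Gria2 held 1 E-box and no GC box, and Gabbr2 held 2 GC boxes and no E-box. An E-box stood in 72.3% of all windows and a GC box in 35.7%. These matches describe the letters of the windows only.

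Htr3a encodes the 5-HT3A subunit, which can form the serotonin-gated channel alone, and Htr3b encodes the 5-HT3B subunit, which joins it. They are neighbours on the minus strand of chromosome 9, at chr9:48899213-48911099 and chr9:48935008-48964990 (GRCm38, GENCODE M21), 23.9 kb apart with no protein-coding gene between them and no exon shared with another gene.

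Htr3a averaged 17.1, 16.1 and 27.2 counts per 10000 in cluster 4 in Sets 1, 2 and 3. It averaged 2.31, 2.72 and 3.10 in cluster 1 and 1.60, 2.91 and 2.90 in cluster 2. Every set of cluster 4 was above every set of the other clusters, and the mean was 7.42 times that of cluster 1 and 8.15 times that of cluster 2. The log2 difference was 2.91 ± 0.22 (SE; adjusted p = 0.000457 by limma) from cluster 1 and 2.64 ± 0.22 (adjusted p = 0.000796 by limma) from cluster 2. Its levels in clusters 1 and 2 were 13.5% and 12.3% of that in cluster 4.

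Htr3b averaged 1.80, 1.96 and 2.83 in cluster 4, 0.894, 1.10 and 1.11 in cluster 1, and 0.334, 0.609 and 0.549 in cluster 2. The sets of the 3 clusters did not overlap, so the order was cluster 4, cluster 1, cluster 2. The log2 difference of Htr3b was 0.76 ± 0.07 (adjusted p = 1.35e-06 by limma) between clusters 4 and 1 and 1.01 ± 0.07 (adjusted p = 7.46e-08 by limma) between clusters 4 and 2. Between clusters 2 and 1 it was -0.25 ± 0.07 (adjusted p = 0.038 by limma), a call that was lost without any 1 set, where the adjusted p was 0.0609 to 0.303, and at equal depth, with every cell thinned to 15000 counts (adjusted p = 0.259).

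Among clusters 1, 2 and 4 the glial marker sum was highest on average in cluster 4. Without the 10% of neurons of each cluster with the most glial counts, the log2 difference of Htr3a between clusters 4 and 1 was 2.94 and that of Htr3b 0.75. At equal depth they were 2.87 and 0.70.

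The mix of the 5-HT3 subunits differed too. Htr3b made up 28.0%, 29.9% and 26.1% of the Htr3a and Htr3b counts in cluster 1, 18.1%, 18.3% and 16.4% in cluster 2 and 8.97%, 11.4% and 8.64% in cluster 4. The sets of the 3 clusters did not overlap, and the exact 95% binomial intervals of the pooled cells were 27.0% to 29.6%, 16.6% to 18.9% and 8.95% to 10.7%. These intervals and those below cover counting error only. Both genes stood highest in cluster 4, while the share of Htr3b was lowest there.

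Single neurons of cluster 1 were uneven in these genes, as the plot of single cells shows. The median neuron of cluster 1 had 0.922 counts per 10000 of Htr3a and the highest had 28.4, and the 39 neurons with the highest levels held 46.2% of the sum. In cluster 2 the median was 1.80, the highest 14.2 and the share of the top 34 neurons 29.9%. The median of cluster 4 was 20.1, and 1 of its 54 neurons had no Htr3a count. Because of this spread, the comparison of Htr3a between clusters 2 and 1 changed sign with the scale. The log2 difference was 0.26 ± 0.22 (adjusted p = 0.694 by limma) as a mean over logs and -0.17 ± 0.18 (adjusted p = 0.813 by limma) as the log of a mean over cells with 0.1 added, and neither was called.

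**Figure D2:**
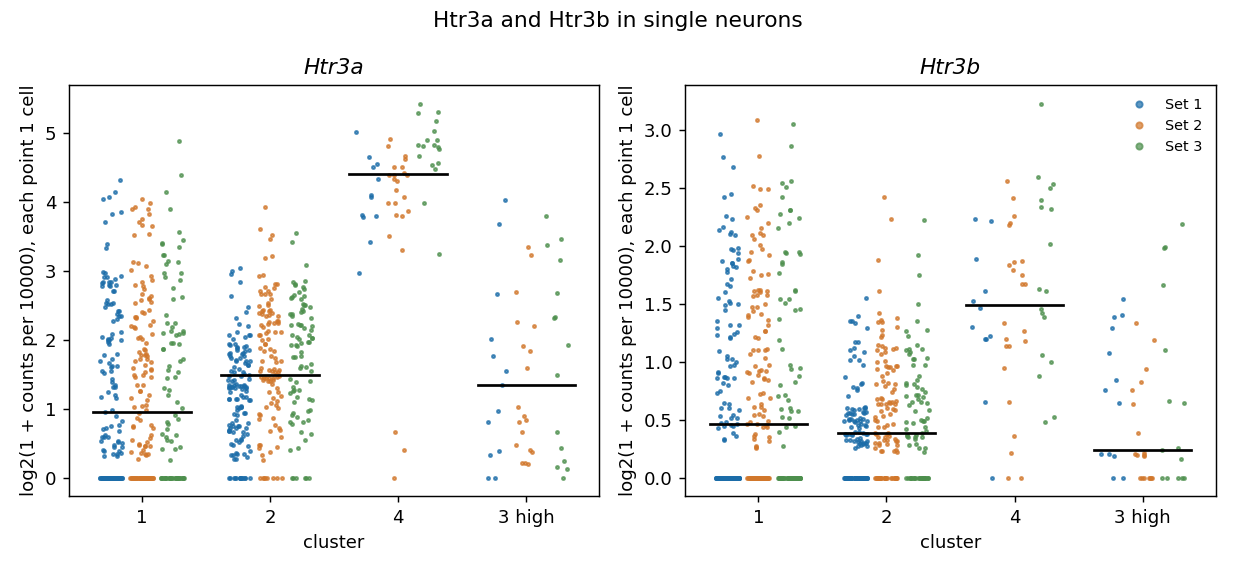
Level of Htr3a (left) and Htr3b (right) in each neuron on a log2(1 + counts per 10000) axis, by cluster (x axis, with the high-count cells of cluster 3 as "3 high") and set (colour), with a black line at the median cell. Neurons of cluster 4 sit around a median of 20.1 counts per 10000 for Htr3a, and those of cluster 1 spread from 0 to 28.4.

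To set neurons at equal depth, each was thinned to 15000 counts, which left out 21 of 388 shallower neurons in cluster 1, 12 of 335 in cluster 2 and 1 of 54 in cluster 4. In cluster 1, 43.8%, 31.6% and 38.6% of neurons in Sets 1, 2 and 3 then had no Htr3a count, and 29.5%, 30.8% and 33.0% had 5 or more. In cluster 2, 18.4%, 12.3% and 13.6% had none, and 13.2%, 38.7% and 39.5% had 5 or more. These steps at 0 and 5 counts were chosen after the values were seen, and what follows is a description. Within cluster 1, Htr3b averaged 2.23, 2.59 and 2.46 counts per 10000 in the neurons with 5 or more Htr3a counts and 0.156, 0.127 and 0.0784 in those with none. Within cluster 2 it averaged 0.630, 1.06 and 0.896 in the former and 0.0267, 0.256 and 0 in the latter. In every set the Htr3b level of cluster 1 neurons with many Htr3a counts lay within the range of 1.80 to 2.83 seen in cluster 4. Gria1 in the same neurons of cluster 1 averaged 1.07, 1.41 and 1.31 with 5 or more Htr3a counts and 0.677, 1.11 and 0.667 with none. Gria2 averaged 0.651, 1.14 and 0.644 with 5 or more and 1.03, 1.52 and 0.667 with none. P2ry6 showed no such order over the sets, at 0.264, 0.325 and 0.276 against 0.167, 0.333 and 0.255. P2rx2 was higher with 5 or more in every set, at 0.233, 0.228 and 0.437 against 0.0729, 0.111 and 0.0980. Gabbr2 was lower in every set, at 0.248, 0.276 and 0.161 against 0.354, 0.365 and 0.275. With 1 to 4 Htr3a counts Gria1 averaged 1.32, 1.37 and 1.20, so its level did not rise step by step in Set 1. Within cluster 2 the order of P2rx2 was reversed. It averaged 0.037, 0.0488 and 0.0833 with 5 or more Htr3a counts and 0.107, 0.154 and 0.182 with none, the latter from 25, 13 and 11 neurons. Gria1 and Gria2 kept no order over the sets there, while Gabbr2 and P2ry6 were lower with 5 or more in every set. The median total of counts before thinning was 30411 in the cluster 1 neurons with 5 or more Htr3a counts and 28716 in those with none. Their glial markers summed to 15.7 and 12.3 counts per 10000, and the part of either in these levels was not tested.

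A share of neurons with a count needs a measure of background. Vip, a cholinergic gene, had a count in 22.3% of thinned neurons of cluster 1 and 19.8% of cluster 2, with all thinned neurons of cluster 4 positive, and Slc18a3 had one in 3.54% and 3.10%. Htr3a had a count in 61.9% of thinned neurons of cluster 1, 84.8% of cluster 2 and 96.2% of cluster 4. Htr3b had one in 49.3%, 46.1% and 88.7%.

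The other serotonin receptor genes were near zero. Htr1d, Htr2b, Htr5a and Htr6 had 18, 25, 19 and 28 counts in all 878 cells, and none reached the minimum for a test. With all 6 genes summed, serotonin receptor RNA stood at 19.0, 18.0 and 30.1 counts per 10000 in cluster 4, above 3.23, 3.86 and 4.22 in cluster 1 and 1.98, 3.55 and 3.47 in cluster 2.

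**Figure D3:**
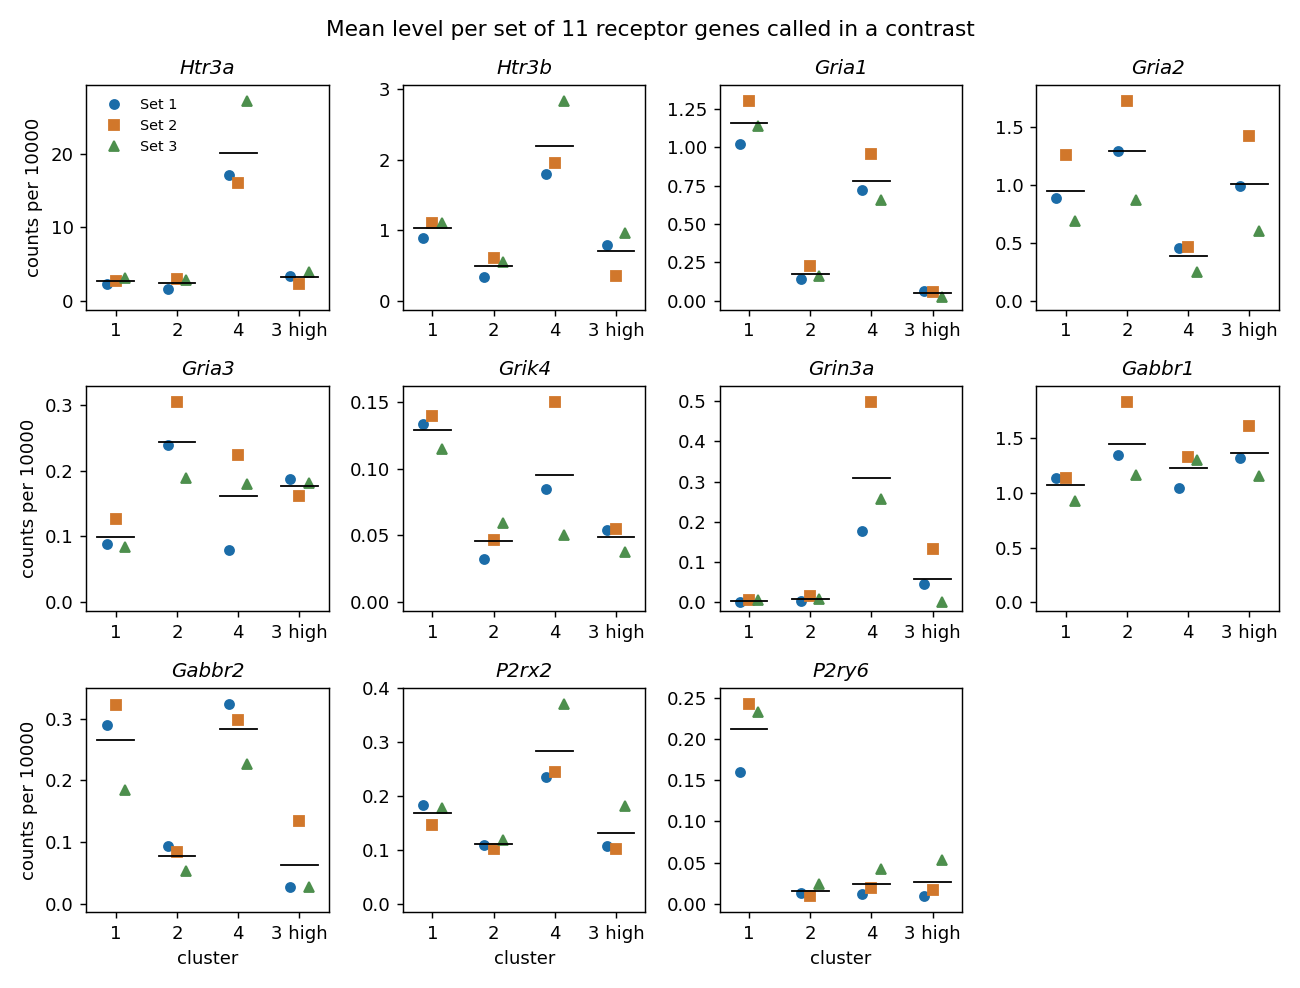
Mean level in counts per 10000 (linear y axes) of 11 receptor genes called in at least 1 contrast, for each set (points) and their mean (line), in clusters 1, 2 and 4 and in the high-count cells of cluster 3 ("3 high"). Gria1 stands at 1.02 to 1.30 in cluster 1 and 0.142 to 0.225 in cluster 2, and P2ry6 at 0.161 to 0.243 in cluster 1 and at 0.0531 or below in the other groups drawn.

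Among the AMPA receptor genes, which encode the main fast glutamate-gated channels of neurons, the balance of Gria1 and Gria2 set cluster 2 apart from clusters 1 and 4. Gria2 carries the subunit that in its edited form keeps calcium from passing through the channel. Gria1, at chr11:57011387-57330244, averaged 1.02, 1.30 and 1.14 counts per 10000 in cluster 1, 0.142, 0.225 and 0.162 in cluster 2 and 0.722, 0.956 and 0.656 in cluster 4. The sets of the 3 clusters did not overlap. The mean of cluster 1 was 6.55 times that of cluster 2, with a log2 difference of -0.82 ± 0.05 (cluster 2 minus cluster 1, adjusted p = 3.31e-08 by limma). Cluster 4 was lower than cluster 1, with a log2 difference of -0.32 ± 0.05 (adjusted p = 0.00022 by limma), and higher than cluster 2, with 0.50 ± 0.05 (adjusted p = 3.39e-06 by limma). Single neurons were uneven in clusters 2 and 4. The median neuron had 1.12 counts per 10000 of Gria1 in cluster 1, 0 in cluster 2 and 0.479 in cluster 4. The highest 39, 34 and 5 neurons of these clusters held 23.2%, 64.0% and 37.2% of the sum. In thinned neurons Gria1 had a count in 75.7% of cluster 1, 17.6% of cluster 2 and 54.7% of cluster 4. The share in cluster 2 lay below the 19.8% of Vip there, but the genes differ in their high level, so these shares are not alike as background. By level, Gria1 in cluster 2 was 15.3% of that in cluster 1, while Vip in cluster 2 was 0.429% of that in cluster 4. Whether the Gria1 counts of cluster 2 came from other wells was not tested.

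Gria2, at chr3:80681450-80802835, was arranged differently. It averaged 0.887, 1.26 and 0.685 in cluster 1, 1.29, 1.72 and 0.866 in cluster 2 and 0.454, 0.461 and 0.248 in cluster 4. Each set had the same order, with cluster 2 above cluster 1 and cluster 1 above cluster 4, although levels of clusters 1 and 2 overlapped between sets. Gria2 was lower in cluster 4 than in cluster 2, by -0.69 ± 0.06 on the log2 scale (adjusted p = 9.57e-07 by limma), and than in cluster 1, by -0.45 ± 0.06 (adjusted p = 5.22e-05 by limma). The latter call was lost without the set as a block (adjusted p = 0.0559 by limma). The difference of 0.23 ± 0.06 between clusters 2 and 1 (adjusted p = 0.0251 by limma) was lost without any 1 set (adjusted p 0.0698 to 0.214) and at equal depth (adjusted p = 0.279).

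Gria3 averaged 0.0887, 0.126 and 0.0835 in cluster 1 and 0.238, 0.304 and 0.188 in cluster 2, without overlap. Its log2 difference was 0.16 ± 0.03 (adjusted p = 0.00619 by limma), and 0.15 without Set 2, where it was not called (adjusted p = 0.145), nor was it without the set as a block (adjusted p = 0.103). With no minimum level Gria3 was not called either. In cluster 4 it was uneven, at 0.0799, 0.223 and 0.179. Gria4 ranged from 0.186 to 0.391 over the 9 set means of clusters 1, 2 and 4 and was not called.

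As shares of all counts of the 4 AMPA genes, Gria1 made up 45.8%, 42.8% and 54.0% in cluster 1, 6.34%, 4.82% and 10.2% in cluster 2 and 37.7%, 45.9% and 53.2% in cluster 4. Gria2 made up 39.4%, 42.2% and 32.9% in cluster 1, 65.0%, 67.0% and 61.3% in cluster 2 and 39.3%, 27.1% and 19.5% in cluster 4. The pooled Gria2 share was 27.6% in cluster 4, from 308 AMPA counts, with an exact 95% interval of 22.7% to 33.0%, and 39.4% in cluster 1, with 37.6% to 41.2%. In Set 1 the Gria2 shares of clusters 1 and 4 were alike, from only 61 counts in cluster 4. The counts are not scaled to length, so these shares serve to compare cells and not genes. The plot of AMPA composition shows cluster 2 with the lowest share of Gria1 and the highest of Gria2 among the 3 clusters, in every set.

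**Figure D4:**
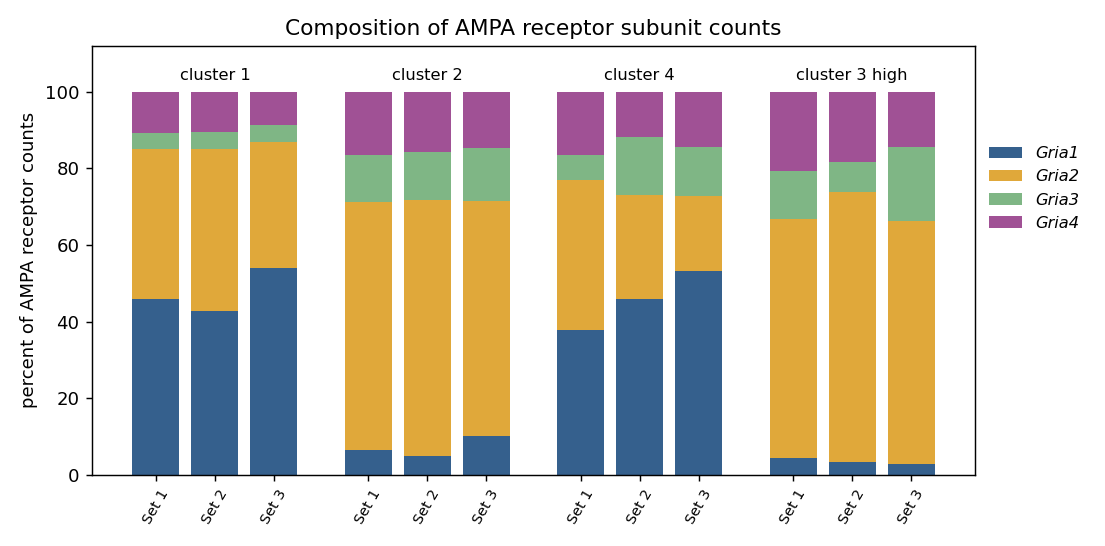
Percent of the summed Gria1, Gria2, Gria3 and Gria4 counts held by each gene (stacked bars, y axis from 0), for each set of clusters 1, 2 and 4 and of the high-count cells of cluster 3. Gria1 fills 42.8% to 54.0% of the bar in cluster 1 and 4.82% to 10.2% in cluster 2.

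Of the NMDA receptor genes, Grin1 encodes the subunit that NMDA receptors require, and it ranged from 0.199 to 0.472 over the 9 set means without a call. Its last exons overlap the antisense gene Grin1os, and the sources used here do not say whether reads were counted by strand. Grin3a encodes a modulatory, glycine-binding subunit that lowers calcium flow, and lies at chr4:49661611-49845744. It averaged 0.177, 0.498 and 0.256 in cluster 4, 0.00255, 0.0156 and 0.00824 in cluster 2, and 0, 0.00569 and 0.00463 in cluster 1. It had 78 counts in the 54 neurons of cluster 4, 12 in the 335 of cluster 2 and 3 in the 388 of cluster 1, and every set of cluster 4 was above those of clusters 1 and 2. The log2 difference of Grin3a was 0.34 ± 0.06 between clusters 4 and 1 and 0.33 ± 0.06 between clusters 4 and 2. Levels in clusters 1 and 2 were 1.11% and 2.84% of that in cluster 4, and in thinned neurons of cluster 4 a count of Grin3a was found in 8.33%, 52.2% and 27.8% in Sets 1, 2 and 3. Grin2c and Grin2d, which can pair with Grin1, had 20 and 11 counts in all, and Grin2a and Grin2b were not analysed here.

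Of the kainate receptor genes, Grik4, a high-affinity subunit that needs a partner, averaged 0.133, 0.140 and 0.115 in cluster 1 and 0.0322, 0.0462 and 0.0591 in cluster 2, without overlap. Its log2 difference of -0.10 ± 0.03 (adjusted p = 0.0204 by limma) was not called without any 1 set (adjusted p 0.0659 to 0.184), nor at equal depth (adjusted p = 0.254). Grik5, the other subunit of that kind, ranged from 0.170 to 0.519 and was not called. The subunits that can form a channel by themselves were rare, with 105 counts of Grik2, 8 of Grik1 and 7 of Grik3 in all cells.

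Metabotropic glutamate receptors were represented by Grm7, a receptor that inhibits adenylyl cyclase, at 0.127 to 0.299 over the 9 set means and without a call. Grm4, of the same inhibitory group, had 110 counts, 74 of them in cluster 2, and its mean over clusters 1, 2 and 4 fell below the minimum for the test. Without that minimum it was called higher in cluster 2 than in cluster 1, with a log2 difference of 0.05 (adjusted p = 0.0393 by limma). Grm3 had 43 counts.

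GABA-B receptors need both of their subunits, Gabbr1 to bind GABA and Gabbr2 to couple to G proteins, and the RNAs of the subunits were arranged in different ways. Gabbr1 stood at 1.13, 1.14 and 0.929 counts per 10000 in cluster 1, 1.34, 1.83 and 1.16 in cluster 2 and 1.04, 1.33 and 1.30 in cluster 4. Its difference of 0.26 ± 0.07 between clusters 2 and 1 (adjusted p = 0.0299 by limma) was lost without any 1 set (adjusted p 0.0589 to 0.455) and at equal depth (0.17, adjusted p = 0.546). Gabbr2, at chr4:46662305-46991873, averaged 0.290, 0.322 and 0.184 in cluster 1, 0.0942, 0.0838 and 0.0536 in cluster 2 and 0.325, 0.299 and 0.226 in cluster 4. Every set of cluster 2 was below every set of clusters 1 and 4. The log2 difference of Gabbr2 was -0.20 ± 0.03 between clusters 2 and 1 (adjusted p = 0.000767 by limma) and 0.21 ± 0.03 between clusters 4 and 2 (adjusted p = 0.000179 by limma). At equal depth the former was -0.17 and not called (adjusted p = 0.0944). Gabbr2 made up 20.9%, 22.7% and 15.4% of GABA-B counts in cluster 1 and 6.18%, 4.93% and 4.17% in cluster 2.

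Of the GABA-A receptor genes, which encode the subunits of the GABA-gated chloride channel, Gabra2 and Gabra5 encode alpha subunits and had 10 and 5 counts in all cells. Gabrr2, a rho subunit, had 6 counts and Gabrg3, a gamma subunit, had 3. None of these reached the minimum for a test.

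Glrb, the glycine receptor's beta subunit, which binds the scaffold gephyrin, ranged from 0.298 to 0.530 over the 9 set means and was not called in any contrast. It was the only glycine receptor gene among the 40, so no alpha subunit was analysed here.

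Of the purine receptors, P2ry6, a receptor for the nucleotide UDP at chr7:100937630-100974649, averaged 0.161, 0.243 and 0.233 counts per 10000 in cluster 1, 0.0132, 0.00867 and 0.0244 in cluster 2 and 0.0122, 0.0185 and 0.0421 in cluster 4. Every set of cluster 1 stood above every set of clusters 2 and 4. The mean of cluster 1 was 13.8 times that of cluster 2, where 18 counts were seen, and 8.77 times that of cluster 4, where 6 were seen. The log2 difference of P2ry6 from cluster 1 was -0.22 ± 0.02 in cluster 2 and -0.20 ± 0.02 in cluster 4. P2ry6 had a count in 27.5% of thinned neurons of cluster 1, 2.48% of cluster 2 and 5.66% of cluster 4. Its neighbour P2ry2, 21.9 kb away on the same strand, had 11 counts in all cells. P2ry12 had 16 counts.

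P2rx2, an ATP-gated channel subunit, averaged 0.234, 0.244 and 0.371 in cluster 4, 0.183, 0.146 and 0.177 in cluster 1 and 0.109, 0.102 and 0.118 in cluster 2, again without overlap. It was higher in cluster 4 than in cluster 2 by 0.19 ± 0.03 (adjusted p = 0.00123 by limma). Against cluster 1 the difference was 0.14 ± 0.03 (adjusted p = 0.0107 by limma). That call was lost without Set 2 (0.15, adjusted p = 0.0697), without Set 3 (0.09, adjusted p = 0.106) and without the set as a block (adjusted p = 0.0578). It was also lost with no minimum level and with median-of-ratios size factors. Between clusters 2 and 1 the log2 difference of P2rx2 was -0.05 ± 0.03 and not called (adjusted p = 0.565 by limma). With voom weights on summed counts it was called (adjusted p = 0.00774 by limma). P2rx4, an ATP-gated channel found on many cell types, ranged from 0.182 to 0.363 over the 9 set means without a call. P2rx5 and P2rx7 had 4 and 3 counts.

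The cells of cluster 3 fell into 2 groups by depth and were not tested. They were divided at 20000 counts, in the gap between 18608 and 52105, into 47 high-count cells with a median of 68061 counts and 54 low-count cells with a median of 2684. In the high-count cells the noradrenergic sum was 84.4, 87.8 and 102. There Gria1 was at 0.0635, 0.0557 and 0.0285 counts per 10000, below every set of clusters 1, 2 and 4, and Gria2 at 0.992, 1.42 and 0.606. Gria1 thus made up 4.41%, 3.19% and 2.88% of AMPA counts, and Gria2 62.5%, 70.6% and 63.5%. Htr3a in these cells stood at 3.35, 2.27 and 3.95 and Htr3b at 0.786, 0.356 and 0.961, both below cluster 4. Gabbr2 was at 0.0262, 0.134 and 0.0265 and P2ry6 at 0.00982, 0.0163 and 0.0531. Grin3a was not confined to cluster 4, with a count in 25.5% of these deeper cells. After thinning, 8.51% of them had a Grin3a count, at 7.69%, 15.8% and 0% in Sets 1, 2 and 3. The thinned share was 0.545% in cluster 1, 1.55% in cluster 2 and 34.0% in cluster 4. P2rx4 was at 1.401, 0.292 and 0.776, but 1 cell of Set 1 had 14.9 counts per 10000, and without it Set 1 stood at 0.276. The low-count cells held markers of endothelial, mural, fibroblast and glial cells in shares that differed by set. They also held noradrenergic markers, with a sum of 32.2, 68.5 and 18.0 in Sets 1, 2 and 3. Whether these counts came from neurons or other wells was not tested. P2ry14, a receptor for UDP-glucose, averaged 0.342 in the low-count cells from only 4 counts and stood at 0.00475 to 0.0178 in the other groups.

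The handling of these transmitters gives the setting of the receptors. A list of 98 genes for synthesis, transport, breakdown, receptor partners and chloride transport had 54 tested genes, of which 9 were higher and 6 lower in cluster 2 than in cluster 1, against 5.27% and 3.59% of all genes tested. In cluster 4, 9 were higher and 14 lower than in cluster 1, against 11.9% and 9.49% of all genes. Against cluster 2, 7 were higher and 17 lower in cluster 4, beside 9.13% and 10.9% of all genes. Its median log2 difference was 0.02, 0.01 and -0.03, beside 0.01, 0.01 and -0.01 over all genes. The members named here have the smallest p in each direction and contrast.

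Of 8 tested genes of serotonin handling, 6 were lower in cluster 4 than in cluster 2, beside 10.9% of all genes, and 5 lower than in cluster 1, beside 9.49%. These were mostly genes that noradrenergic neurons use for catecholamines as well. Maob, a monoamine-degrading enzyme, stood at 5.55, 2.87 and 0.429 counts per 10000 in clusters 1, 2 and 4, with log2 differences of -2.16 ± 0.06 between clusters 4 and 1 (adjusted p = 2.72e-12 by limma) and -0.76 ± 0.06 between clusters 2 and 1 (adjusted p = 5.99e-07 by limma). Slc18a2, the vesicular monoamine transporter, averaged 4.62, 4.65 and 0.444, and Ddc, the decarboxylase that makes dopamine and serotonin, 11.4, 12.9 and 3.36. Slc18a1, the transporter's second form, stood at 1.17 in cluster 2 and at 0.0712 and 0.132 in clusters 1 and 4, with a log2 difference of 0.89 ± 0.05 between clusters 2 and 1 (adjusted p = 2.52e-08 by limma). Slc6a4, the serotonin uptake transporter, was highest in cluster 4, at 0.367, beside 0.219 in cluster 1 and 0.0583 in cluster 2. Its log2 difference was 0.31 ± 0.03 between clusters 4 and 2 (adjusted p = 5.11e-06 by limma).

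Of 19 tested partners of glutamate receptors, 4 were higher and 4 lower in cluster 4 than in cluster 1, beside 11.9% and 9.49% of all genes. Homer2, a scaffold of metabotropic glutamate receptors, averaged 0.398 in cluster 4 and 0.0207 and 0.0152 in clusters 1 and 2, with a log2 difference of 0.39 ± 0.04 in both contrasts. It was tested through its level in cluster 4 alone, so no p-value is given. Cacng2, which encodes the AMPA receptor auxiliary protein stargazin, averaged 0.342 in cluster 2 and 0.0903 in cluster 1, a log2 difference of 0.28 ± 0.04 (adjusted p = 0.000191 by limma), and 0.403 in cluster 4. Shisa9, another AMPA receptor auxiliary protein, stood at 0.511, 0.179 and 0.0225 in clusters 1, 2 and 4, and was lower in cluster 2 than in cluster 1 by -0.32 ± 0.03 (adjusted p = 8.49e-06 by limma).

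Among the 3 tested chloride transporters, Slc12a7, a potassium-chloride cotransporter, averaged 0.0358, 0.149 and 0.437 in clusters 1, 2 and 4 and was higher in cluster 4 than in cluster 1 by 0.42 ± 0.04 (adjusted p = 1.25e-06 by limma). Of 9 tested partners of GABA receptors, none was called between clusters 2 and 1, and 1 was higher and 2 were lower in cluster 4 than in cluster 1. Of 8 tested genes of purine handling and adenosine receptors, 1 was higher and 2 were lower in the same contrast. With 11.9% of all genes higher and 9.49% lower there, the single higher gene of each list is about the share of all genes. The 2 lower genes of each list are a larger share, from short lists. Of the same 8 purine genes, 1 was higher and 4 were lower in cluster 4 than in cluster 2. Of all genes, 9.13% were higher and 10.9% lower in that contrast.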

How the data were processed

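The authors deposited a table of natural log values, ln(1 + counts per 10000) per cell, and a table of cluster numbers without a unit. The submitters' processing notes name the build GRCm38 and the tools STAR 2.5.3a, featureCounts 1.5.3, SAMtools 1.4.1 and Seurat. Per the labels' protocols, cDNA was pooled for library construction and 3′ ends were sequenced. Values are not scaled to gene length, so levels of different genes are not compared.

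Counts were recovered from the deposited natural log values, and 100% came out whole within 0.001. Levels are means over the cells of a set and cluster. limma 3.58.1 in R 4.3.3 (trend and robust options, two-sided) tested set by cluster means of log2(1 + counts per 10000) in clusters 1, 2 and 4, with the set as a block. Deviations from cluster means correlated at 0.555 to 0.866 between clusters of the same set, so the set pairs the clusters. Between sets the range was -0.72 to 0.00171. Subtracting each cluster's mean over its sets draws these values to the negative side, so they add no separate evidence. The procedure was tested on cells of cluster 1 divided at random within each set, with the counts of chosen genes lowered in a part of them. That test did not cover differences between clusters in depth or in number of cells. Each set pools 2 mice, so the spread between sets is that between pools.

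The receptor genes and lists were chosen with earlier results of these data known. Receptor genes called in any contrast are named with values, others reaching 0.2 counts per 10000 in a cluster with their range, and the rest by name, except that some GABA-A receptor genes are counted but not reported here. Promoter windows were found for 28 of the 40 genes and come from RefSeq. The alternatives were another minimum level, pseudocount, scaling and averaging, equal depth, voom weights, no block, each set left out, and the 10% most glial neurons left out. A deposited log of sorting events was not used, since no cell could be tied to it.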

Additional observations from a re-analysis of the deposited data

Results flagged for a closer look

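The 12 called receptor genes were compared over the 4 plates of Sets 1 and 2 within clusters 1 and 2, for plates that stood far from the others of their set. Of 47 such comparisons 4 stood out. Chance gives about 1 in 20 where plates vary freely, but 2 of the 4 are of Grin3a with all other plates at 0, where any count on a single plate stands out by construction. Gabbr2 in cluster 2 averaged 0.167 counts per 10000 on plate 2 of Set 1, beside 0.0529 to 0.07 on the other plates, and this is still below the level of Set 1 in cluster 1. Gria2 in cluster 2 averaged 0.962 on plate 1 of Set 1, from 23 neurons, beside 1.35 to 1.37 on the others. Grin3a in cluster 1 averaged 0.0215 on plate 8 of Set 2, and in cluster 2 it averaged 0.00794 on plate 2 of Set 1, and in each case it had no count in that cluster on the other plates of the set.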

How the results depend on the processing

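The 23 called differences were recomputed under 12 alternatives, and none changed direction. Of these, 15 were called under every alternative that tested them, among them those of Grin3a and P2ry6, which the minimum level bound to differ. The 8 that lost their call under some were Gabbr1, Gabbr2, Gria2, Gria3, Grik4 and Htr3b between clusters 2 and 1, and Gria2 and P2rx2 between clusters 4 and 1. Between clusters 2 and 1, the 3 genes called higher became 1, Gria3, with median-of-ratios size factors, at 15000 counts per cell and without the most glial neurons. With no minimum level none of the 3 was called, and the 1 call there was Grm4. The 3 became 0 with no replicate block (the set left out of the model) and 7 with voom weights on summed counts. Leaving out a set gave 0 to 1 (1 without Set 1 or Set 3, 0 without Set 2). The 5 called lower became 3 with no minimum, with a minimum of 0.2 counts per 10000 and with no replicate block, 2 at 15000 counts per cell, and 3 when leaving out any set. Between clusters 4 and 1, the 5 called higher became 3 with a minimum of 0.2, and 4 to 5 when leaving out a set. Between clusters 4 and 2, the 1 called lower became 2 with voom and without the most glial neurons, which added Gria4 and Gria3 in turn, and 1 to 2 when leaving out a set (2 without Set 3, with Gria3). A minimum of 0.2 removes low genes from the test, and the cause of the other shifts was not tested. Without the replicate block the calls lost were Gabbr1, Gria2, Gria3, Grik4 and Htr3b between clusters 2 and 1 and Gria2 and P2rx2 between clusters 4 and 1. Receptor genes at a few counts per cluster are below what this depth can compare.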
